A study of Mus musculus with 27 samples.

Results

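The regions described are 17248 peaks of WDR43 on mouse chromatin that lay away from protein-coding loci. They were taken from the 41190 peaks that ChIP-seq, sequencing of DNA pulled down with an antibody to the FLAG tag, gave for FB-tagged WDR43 (the FB list, without 362 peaks on unplaced chromosome pieces). A peak was kept where it neither overlapped any of the 20157 coding loci of the deposited RNA table nor lay within 1 kb of either end of one, on genome build mm9. These outside peaks made up 41.9% of the FB list. The rest were 14802 peaks within 1 kb of an end of a coding locus (end peaks) and 9140 peaks inside coding loci (inside peaks).

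All libraries came from mouse embryonic stem (ES) cells, grown in serum with leukemia inhibitory factor. Fbio-tagged WDR43 was mapped in cells given DRB, in cells given actinomycin D (ActD) and in cells given the solvent DMSO, each as 1 library, and WDR43 was also mapped in 1 library called FB and 1 called cFB-KI. Antibodies to 3 forms of RNA polymerase II (Pol II) were used in wildtype cells with a WDR43 hairpin (shWDR43) and with a control hairpin (shCtl), in 2 libraries for each antibody and hairpin, and RNA was sequenced in 2 libraries of each hairpin. Doses, times and whether the ChIP numbers 1 and 2 mark cultures or hairpins are not stated, so differences between hairpin groups carry only the spread between these libraries, which may be technical. The FLAG maps show tagged protein only. The labels do not state the tagged protein's level or the number of clones. Of the 27 samples of the series, 6 are not analysed here.

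WDR43 is a WD-repeat protein that belongs to the processome of the small ribosomal subunit, which cuts and folds the precursor of ribosomal RNA. Pol II carries a long tail on its largest subunit. Antibody 8WG16 prefers the tail without phosphate (hypoP), a tail phosphorylated at serine 5 (Ser5P) marks Pol II near gene starts, and one phosphorylated at serine 2 (Ser2P) marks Pol II in gene bodies and past gene ends. DRB blocks the kinases that release paused Pol II, and ActD binds DNA and blocks transcription by all nuclear polymerases. Sequence outside coding genes holds enhancers, which are transcribed briefly by Pol II, genes of long noncoding RNAs, and the arrays and clusters of 5S rRNA, 4.5S RNA and transfer RNA (tRNA) genes, which RNA polymerase III transcribes.

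The knockdown was visible in the RNA. Wdr43 had 21.2 and 20.7 FPKM in shWDR43 cells, against 82.3 and 78.2 FPKM in shCtl cells (log2 fold change -1.89, limma, Benjamini-Hochberg adjusted p = 0.000751). FPKM is fragments per kilobase of transcript, on the authors' own scale. The 8 ES cell markers summed to 2660 and 2495 FPKM in shWDR43 cells, against 4696 and 4804 FPKM in shCtl cells, and none was below 1 FPKM. Of 7 fibroblast markers, which could show feeder cells, 4 stayed below 1 FPKM on average, Dcn and Lum were at 0 in all libraries, and the sum was 35.6 and 61.6 FPKM in shWDR43 cells, against 29.2 and 40.4 FPKM in shCtl cells. The higher sum came from Col1a1 and Col1a2, which did not pass (limma, adjusted p = 0.108 and 0.107). Thy1 was lower, with 1 and 1.2 FPKM in shWDR43 cells, against 3.6 and 5.2 FPKM in shCtl cells. The 5 endoderm markers summed to 5.6 and 5.4 FPKM in shWDR43 cells, against 3 and 2.8 FPKM in shCtl cells. The 5 neural markers summed to 20.6 and 20.6 FPKM in shWDR43 cells, against 37.6 and 32.8 FPKM in shCtl cells. Most of this fall was Tubb3, with 13.2 and 13.3 FPKM in shWDR43 cells, against 27.4 and 24.3 FPKM in shCtl cells. Sox1 was lower too, while Nes (log2 fold change -0.08) and Map2 (0.11) did not pass in limma. The part of these marker changes in the results below was not tested, and in bulk RNA fewer cells of a type and less RNA per cell cannot be told apart.

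Some outside peaks lay within 1 kb of the 5′ end of a noncoding gene. The sequences there are shown for some of the loci named further on, 3 with a fall of RNA and 2 that did not pass the test. Mir17hg, Snhg8, Snhg12, Dancr, Dleu2 and Miat had such a peak too and are not shown. Snhg1, Snhg3, Snhg5 and Snhg7 are noncoding host genes whose introns hold small nucleolar RNAs, the guides that modify ribosomal RNA, and Malat1 is an abundant nuclear long noncoding RNA. Each had an outside peak there. Their promoters, from 250 bases before to 50 bases after the start as RefSeq places it on GRCm38.p6, are shown 5′ to 3′ on the strand of the gene. Capitals mark the motifs searched on both strands, which were the GC box (GGGCGG), the TATA box (TATAAA) and the CCAAT box (CCAAT).
Snhg5: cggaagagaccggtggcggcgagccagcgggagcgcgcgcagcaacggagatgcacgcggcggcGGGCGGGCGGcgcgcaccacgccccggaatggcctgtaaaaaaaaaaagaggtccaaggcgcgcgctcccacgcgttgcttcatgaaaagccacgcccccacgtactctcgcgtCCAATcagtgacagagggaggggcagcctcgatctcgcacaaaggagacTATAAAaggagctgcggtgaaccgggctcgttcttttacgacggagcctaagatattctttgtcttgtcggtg
Snhg3: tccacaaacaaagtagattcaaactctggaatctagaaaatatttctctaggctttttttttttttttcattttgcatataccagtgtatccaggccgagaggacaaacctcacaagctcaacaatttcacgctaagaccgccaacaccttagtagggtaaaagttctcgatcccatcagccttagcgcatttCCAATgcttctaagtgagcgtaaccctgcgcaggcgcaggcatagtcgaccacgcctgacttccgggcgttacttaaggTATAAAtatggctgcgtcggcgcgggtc
Snhg1: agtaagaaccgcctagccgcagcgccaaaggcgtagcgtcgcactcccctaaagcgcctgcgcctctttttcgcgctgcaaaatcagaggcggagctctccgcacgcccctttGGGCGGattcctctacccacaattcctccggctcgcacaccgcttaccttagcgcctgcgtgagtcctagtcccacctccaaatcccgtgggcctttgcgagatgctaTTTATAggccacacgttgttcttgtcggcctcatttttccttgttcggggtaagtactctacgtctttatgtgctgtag
Snhg7: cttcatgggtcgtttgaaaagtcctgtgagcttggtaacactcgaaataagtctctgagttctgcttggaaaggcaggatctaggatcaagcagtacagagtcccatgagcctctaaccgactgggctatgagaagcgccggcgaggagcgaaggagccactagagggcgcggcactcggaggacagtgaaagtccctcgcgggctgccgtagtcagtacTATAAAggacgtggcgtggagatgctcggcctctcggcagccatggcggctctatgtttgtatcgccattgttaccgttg
Malat1: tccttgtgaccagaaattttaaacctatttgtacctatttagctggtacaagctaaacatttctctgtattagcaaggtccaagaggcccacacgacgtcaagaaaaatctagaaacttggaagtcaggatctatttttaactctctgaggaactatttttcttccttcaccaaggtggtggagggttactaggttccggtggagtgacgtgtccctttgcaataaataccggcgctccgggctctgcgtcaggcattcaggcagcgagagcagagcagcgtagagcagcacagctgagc
In Snhg7 the TATA box began 30 bases before the start and in Snhg5 it began 23 bases before it. In Snhg1 a copy on the other strand began at -29, in Snhg3 the only copy began at +22, after the start, and Malat1 had none. Of the listed loci not shown, Snhg8 held a TATA box, Dleu2 held 1 at +15, after the start, and Snhg12, Dancr and Miat held none. The bases matched to Mir17hg held none either, but whether they are its promoter was not checked. Snhg5 held a pair of overlapping GC boxes, printed as 1 run of capitals, and 1 CCAAT box, Snhg3 held 1 CCAAT box, Snhg1 held 1 GC box, and Malat1 held none of the 3 motifs. These promoters were matched to the loci by gene symbol. A match shows only that the letters are there, and where in these letters each mm9 peak lies was not looked up.

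Among matched noncoding promoters, those with an outside peak within 1 kb held more CpG dinucleotides than those of loci without an outside peak. Loci without one may lie at coding loci, where an FB peak counts as an end or inside peak, so they may hold other FB peaks. Promoters could be matched for 1747 of 17812 noncoding loci, and 214 of these had an outside peak at the 5′ end. For the 161 of them that RefSeq does not list as protein-coding, the median was 13 CpG in 300 bases and 60.9% had at least 10. The 1291 matched promoters of the same kind without an outside peak had a median of 5, and 26.6% had at least 10. Among loci with at least 1 FPKM in shCtl cells the medians were 20 CpG (n = 39) with a peak and 13 CpG (n = 89) without one. The GC box stood in 48.4% of promoters with a peak, 23.0% of those without, and 35.9% of all 27025 promoters in the table. The TATA box stood in 11.2% with a peak, 12.3% without, and 14.2% of all promoters. Among loci with at least 1 FPKM in shCtl cells it stood in 23.1% (n = 39) with a peak and 8.99% (n = 89) without. The CCAAT box stood in 34.8% with a peak, 37.3% without, and 38.02% of all promoters. These shares describe the matched loci, and no test was made of them.

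Outside peaks were mostly narrow and of low score, with a small number among the highest of the whole list. The scores are the authors' values, at least 50 in every list, and 3100 recurs exactly among the highest. The median width was 291 bp for outside peaks, 452 bp for end peaks and 270 bp for inside peaks, and the median scores were 81.0 for outside peaks, 146 for end peaks and 74.3 for inside peaks. A score of at least 100 was reached by 37.8% of outside peaks, 64.0% of end peaks and 30.7% of inside peaks. Among the 100 highest scores of the FB list, 37 belonged to outside peaks. Scores of 3100 or more occurred in 10 outside peaks, no end peak and 1 inside peak. The 1 kb limit parted peaks of similar score but of unlike overlap with the cFB-KI list. The 453 outside peaks between 1 and 1.5 kb from a coding locus had a median score of 81.6, and 29.1% of them met a peak of the cFB-KI list. The 691 end peaks between 0.5 and 1 kb from an end had a median score of 76.8, and 43.7% met one.

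The highest scores lay between Ezh2 and Pdia4 on chromosome 6 and at Rn45s on chromosome 17. Of the 10 outside peaks with a score of at least 3100, 9 lay between Ezh2 and Pdia4, 6 of them at the locus Rn4.5s, and 1 at Rn45s. Of these 10, 9 had exactly 3100 and cannot be ranked. The top peak (chr6:47721698-47723253, score 3117.31) lay 18.8 kb past the end of Rn4.5s and 22.9 kb from Pdia4. It met a peak in all 4 other WDR43 lists and in 11 of the 12 Pol II lists. The widest outside peak (chr6:47688662-47697192, 8531 bp, score 3100) lay inside the locus Rn4.5s and met all 4 other WDR43 lists but only 1 Pol II list. The next widest (chr8:19923743-19930273, 6531 bp, score 495.49) lay 2.97 kb from Gm15319 and met the DRB and ActD lists and no Pol II list. The peak at Rn45s, the gene name for the precursor of ribosomal RNA (chr17:39979942-39985774), spanned the whole locus at 5926 bp and was 1 of 18 outside peaks found in all 16 other lists. The RNA table gave Rn45s 0 FPKM in all 4 libraries.

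The locus Rn4.5s (uc009bte.1, chr6:47604920-47702924) carries the name of 4.5S RNA, a small rodent RNA made from tandem repeats. It held 20 outside peaks, 11 of them with a score of at least 1000, and these 11 stood at a median spacing of 4.197 kb where neighbours were within 10 kb. WDR43 peaks at Rn4.5s were found after DRB and ActD as well. Of the 20 peaks, 14 met a DRB peak, 9 an ActD peak, 9 a DMSO peak and 2 a cFB-KI peak. None met a peak of any hypoP or Ser2P list. Ser5P lists met 6 and 0 of them in shWDR43 cells, against 5 and 1 in shCtl cells. The RNA value of the locus was 0.7 and 0.2 FPKM in shWDR43 cells, against 0.2 and 0.5 FPKM in shCtl cells. The RNA libraries were made from mRNA isolated with Dynabeads, and how well they hold small RNAs was not tested. The wider stretch from chr6:47583467-47728756 held 32 outside peaks, of which 21 met a DRB peak, 13 an ActD peak, 16 a DMSO peak and 6 a cFB-KI peak.

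The 5S rRNA array gave the densest run of outside peaks. Between Gas8 and Rhou (chr8:126061775-126168007), an interval in which RefSeq lists 48 genes of 5S rRNA, 71 outside peaks stood in 106 kb. Their median score was 376.8, and the 50 with a score of at least 200 were spaced at a median of 1.71 kb. DRB peaks met 29 of the 71, ActD peaks 2, DMSO peaks 32 and cFB-KI peaks 7. No Pol II list met more than 5 of them. A tRNA gene cluster between Fcgr3 and Sdhc (chr1:172993888-173048667), with 20 tRNA genes in RefSeq, held 17 outside peaks with scores up to 2263.75. Of these, 3 met a DRB peak, none an ActD peak, 10 a DMSO peak and 2 a cFB-KI peak. A stretch of 56 peaks between Hrh1 and Atg7 (chr6:114443619-114586837) differed in that its highest score was 293 and its median 78.0. This stretch was noticed for its density after the values were seen. Its peaks met DRB in 2 cases, ActD in 1, DMSO in 13 and cFB-KI in 11. They stood at a median spacing of 2.43 kb, against 2.46 kb for the 32 peaks of the wider stretch at Rn4.5s.

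**Figure D1:**
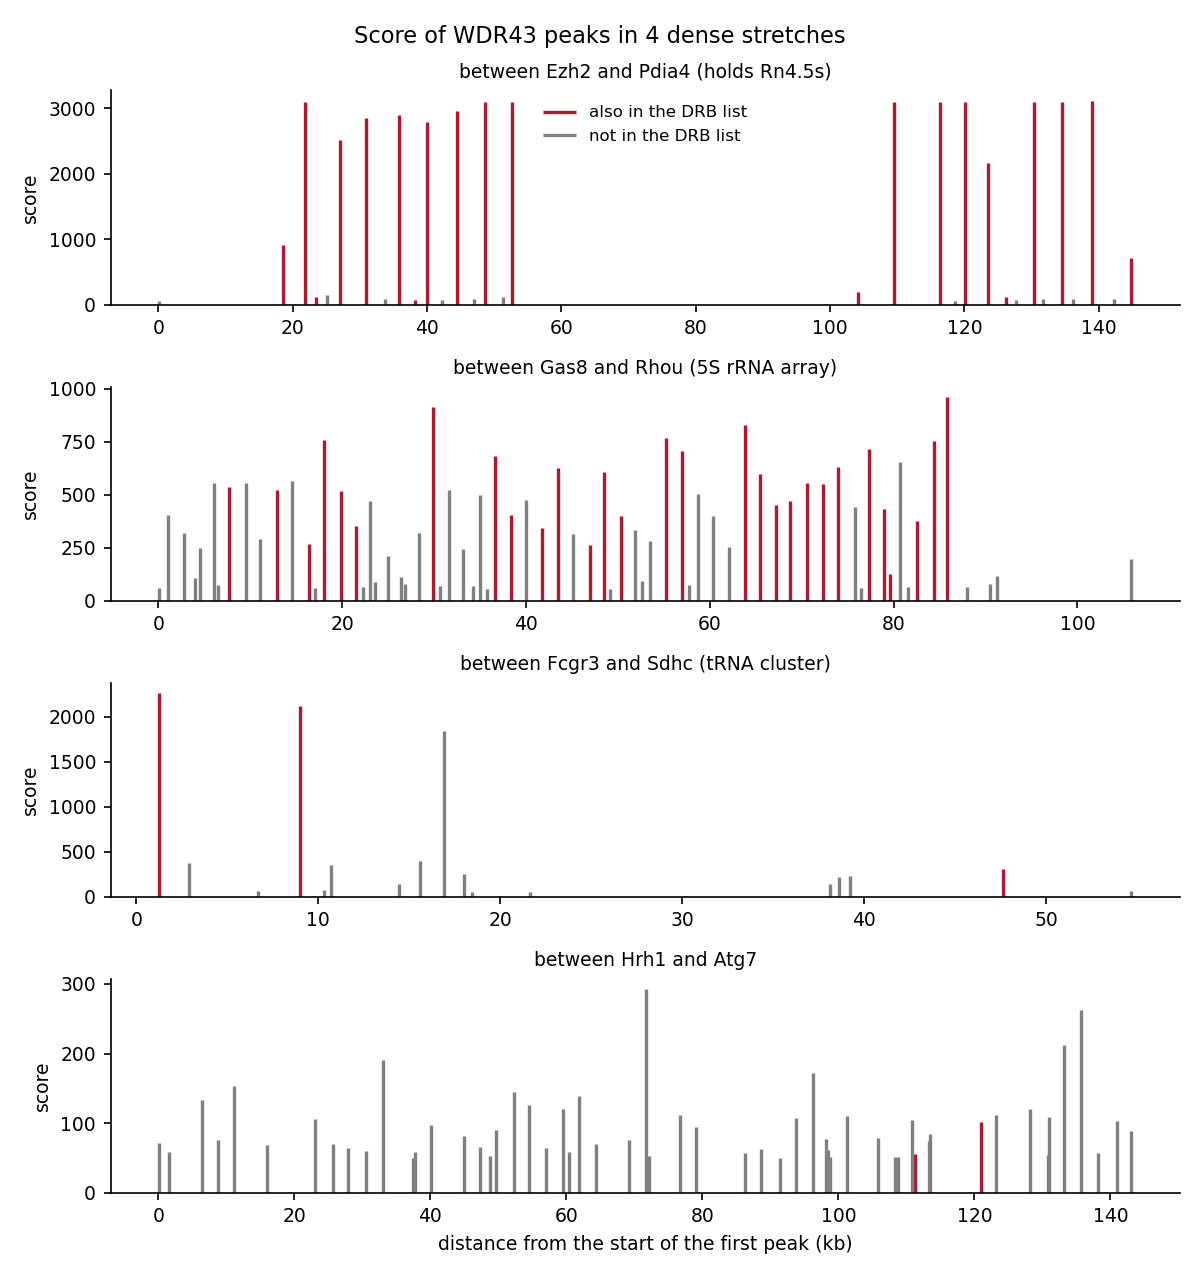
Score of each outside peak along 4 dense stretches, against the distance in kb from the start of the first peak, with peaks that met a DRB peak in red and the others in grey. In the stretches with Rn4.5s and the 5S rRNA genes the high peaks recur every few kb, and those of the Rn4.5s stretch above 1000 are red. Peaks between Hrh1 and Atg7 recur every few kb too, but stay below 300. Score axes differ between panels.

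Intervals between neighbouring coding genes with tRNA genes held more outside peaks per length than the rest, and for 5S rRNA genes 1 interval made the difference. RefSeq gene order was used to find these intervals, since it is on another build. Intervals with tRNA genes held 10.7 outside peaks per Mb, against 6.58 per Mb in all other intervals. The value was 10.2 per Mb without the interval that held most. Those with 5S rRNA genes held 15.0 per Mb, against 6.64 per Mb in the others, but 71 of their 127 peaks lay between Gas8 and Rhou, and without that interval the value was 6.72 per Mb. Those with U small nuclear RNA genes, the RNA parts of the spliceosome, held 61.5 per Mb over 0.895 Mb, against 6.64 per Mb. Of their 55 peaks, 44 lay in 2 intervals that also hold tRNA genes and were counted for both, and the other 8 intervals held 11 peaks over 0.623 Mb, or 17.7 per Mb. Leaving these intervals out was chosen after seeing the data. Intervals with microRNA genes were hardly denser than the rest, with 6.99 per Mb, against 6.63 per Mb elsewhere. They held 10.1% of all outside peaks, but 31 of the 100 with the highest score and 12.9% of the highest 1000. Which of these intervals held the 31 was not looked up. A tRNA cluster between Olfr1360 and Zfp184 on chromosome 13, with 23 tRNA genes, held 28 outside peaks with a top score of 1559, and 20 of them met a DMSO peak but 1 a DRB peak. Repeated genes were counted as the reference draws them. How reads that fit several copies were placed is not stated, and its part in these scores was not tested. Over the genome, 9297 windows of 100 kb held an outside peak. Of these, 56.3% held a single one and 46 held 10 or more.

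Outside peaks far from every locus of the table included strong sites, which differed from each other in the lists that met them. The highest more than 50 kb from any locus of the table was a 2817 bp peak on the X chromosome (chrX:89086982-89089798, score 1459.45), 58.7 kb from Mageb5. It met all 4 other WDR43 lists and all 4 hypoP lists, but no Ser5P or Ser2P list. The next (chr9:26213988-26216059, score 1327.68), 343 kb from B3gat1, met all 4 hypoP lists and the second shWDR43 Ser5P list. The next after it (chr2:39662251-39662671, score 1321.4), 580 kb from Ppp6c, met the DRB, ActD and DMSO lists and no Pol II list. On the X chromosome 68.6% of the 1087 FB peaks lay outside coding loci, against 32.6% of the 3023 on chromosome 11.

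The other WDR43 lists met outside peaks unevenly. The shares were 8.79% in the DRB list (1516 peaks, exact 95% interval 8.37 to 9.22), 1.015% in the ActD list (175 peaks, 0.870 to 1.18), 45.1% in the DMSO list (7773 peaks, 44.3 to 45.8) and 29.1% in the cFB-KI list (5025 peaks, 28.5 to 29.8). These intervals are Clopper-Pearson intervals and cover counting error only. End peaks were met at 8.22% by the DRB list, 0.324% by ActD, 58.0% by DMSO and 82.4% by cFB-KI. Inside peaks were met at 5.92% by DRB, 0.744% by ActD, 37.6% by DMSO and 27.3% by cFB-KI. The largest gap between outside and end peaks was thus in the cFB-KI list, the only one of the 4 with a median peak width over 1 kb (1031 bp). The lists differed in size, with 4286 peaks for DRB, 386 for ActD, 30723 for DMSO and 21428 for cFB-KI. Outside minus inside was positive in 4 of 4 lists, by 3.11 percentage points on average (SD 3.10; exact two-sided sign-flip permutation p = 0.125, the smallest that 4 lists allow; adjusted p = 0.167 over 4 such tests). Outside minus end averaged -16.2 points (exact p = 0.5, adjusted p = 0.5), or -3.88 points without the cFB-KI list.

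Among outside peaks with a DMSO peak, the inhibitor lists met more than among end peaks. The DRB list met 16.2% of the 7773 outside peaks with a DMSO peak (exact 95% interval 15.4 to 17.1), 12.2% of such end peaks (11.6 to 13.0) and 13.0% of such inside peaks (11.9 to 14.2). The ActD list met 2.03% of such outside peaks (1.73 to 2.37), 0.559% of such end peaks (0.413 to 0.741) and 1.95% of such inside peaks (1.51 to 2.47). Each condition is 1 library, so no test between DRB or ActD and DMSO could be made. Outside peaks in the ActD list had a median score of 436 and those in the DRB list 259, against 77 for outside peaks in neither. Of the 175 in the ActD list, 158 also met a DMSO peak, 146 a DRB peak and 58 a cFB-KI peak. No Pol II list met 105 of them, all 12 met 21, and 9 lay at Rn4.5s. ActD peaks lay outside coding loci in 64.2% of cases and DRB peaks in 50.2%, against 44.4% of DMSO peaks.

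Of the Pol II lists, those of hypoP, which are also the longest, met the most outside peaks. In shCtl cells the 2 hypoP lists met 37.2% and 37.6% of outside peaks, the 2 Ser5P lists 2.41% and 3.11%, and the 2 Ser2P lists 3.90% and 4.43%. End peaks showed hypoP first too, with 74.2% and 74.6% for hypoP, 8.19% and 11.2% for Ser5P and 8.59% and 9.45% for Ser2P. The shCtl lists held 19420 and 19435 peaks for hypoP, 1848 and 2488 for Ser5P and 3835 and 4271 for Ser2P, and antibodies differ, so these shares do not rank the Pol II forms. Both shCtl hypoP lists met 6006 outside peaks (34.8%), and 4889 of these were met by no shCtl Ser5P or Ser2P list. No Pol II list of either hairpin met 46.5% of outside peaks, against 11.9% of end peaks and 59.8% of inside peaks. No other list at all met 25.8% of outside peaks, 4.38% of end peaks and 34.4% of inside peaks. Over the 12 Pol II lists the share was lower for outside than for end peaks in 12 of 12, by 17.9 points on average (mean -17.9, SD 14.3; exact two-sided sign-flip permutation p = 0.000488, the smallest that 12 lists allow; adjusted p = 0.00195). Outside peaks were met more than inside peaks in 10 of 12 lists, by 5.04 points (SD 5.81; exact sign-flip permutation p = 0.00195, adjusted p = 0.00391), the exceptions being both shWDR43 Ser2P lists. All 12 lists are set against the same FB peaks, so they are not independent of each other. Scores move with these shares, and among FB peaks in the upper tercile of score outside minus inside was 4.06 points with a permutation p of 0.0601.

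**Figure D2:**
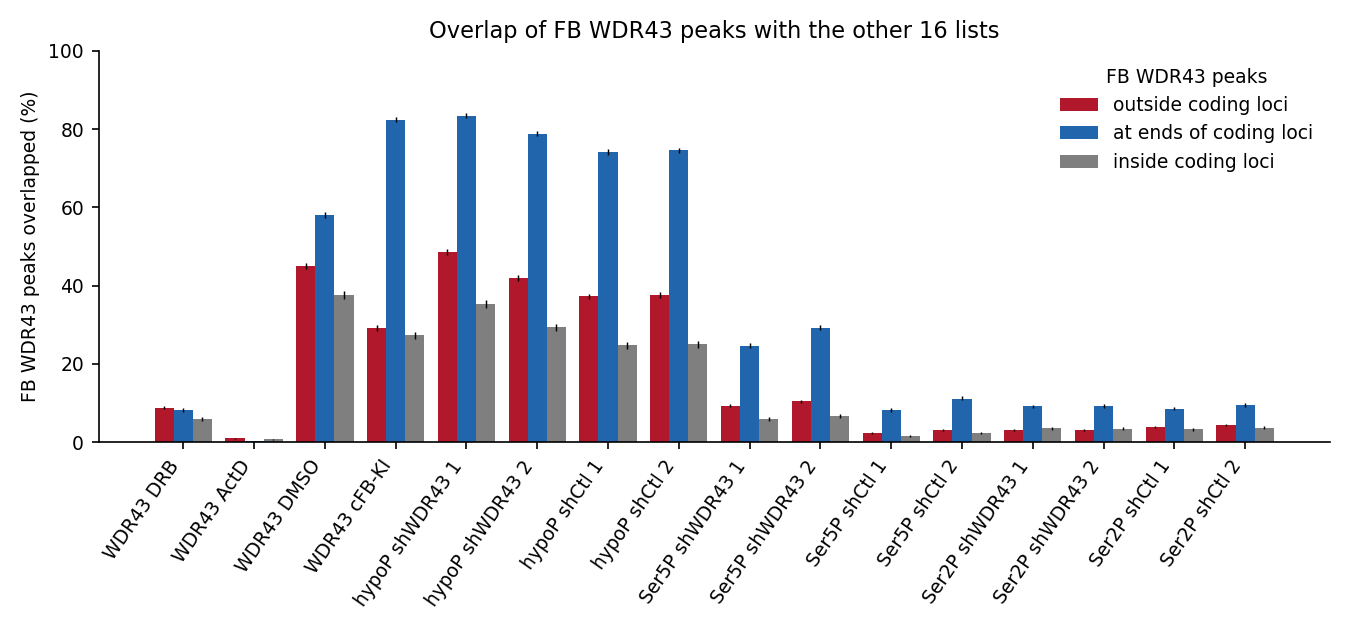
Percent of FB WDR43 peaks that shared at least 1 bp with a peak of each other list, for peaks outside coding loci (red), at ends (blue) and inside coding loci (grey), with exact 95% intervals that cover counting error only. Red bars stand below blue bars in all 12 Pol II lists and in the DMSO and cFB-KI lists.

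Higher scores went with more overlap in nearly every list. In the lowest decile of outside peaks by score (50.04 to 53.53), the DMSO list met 18.96%, the cFB-KI list 13.7% and hypoP list 1 of shCtl 21.4%. In the highest decile (from 263 up), these lists met 92.1%, 79.1% and 81.9%. The DRB list met 0.986% of the lowest decile and 43.3% of the highest. Ser2P changed least, with 2.90% of the lowest decile and 6.38% of the highest in list 1 of shCtl.

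With distance from coding loci, hypoP shares were highest in the farthest class and Ser2P shares in the nearest. HypoP list 1 of shCtl met 27.5% of the 812 outside peaks between 1 and 2 kb from a coding locus, 22.3% between 2 and 5 kb, 25.5% between 5 and 10 kb and 31.8% between 10 and 50 kb. It met 38.3% between 50 and 100 kb, 53.3% between 100 and 500 kb and 61.7% of the 1320 peaks beyond 500 kb. List 1 of shWDR43 followed the same course at a higher level, with 40.02% in the nearest class and 72.6% in the farthest. Ser2P also fell with distance at first and then rose, but its fall was the larger part. Ser2P list 1 of shCtl met 11.0% between 1 and 2 kb, 2.04% between 10 and 50 kb and 4.85% beyond 500 kb. Ser5P list 1 met 6.90% in shWDR43 cells, against 1.35% in shCtl cells, in the nearest class, and 13.3% in shWDR43 cells, against 2.58% in shCtl cells, in the farthest. The DRB list met 4.31% of the nearest and 13.0% of the farthest. Median scores were 80.4 in the nearest class and 91.5 in the farthest. The share met by no Pol II list was 49.4% in the nearest class, 59.7% between 5 and 10 kb and 24.7% in the farthest.

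**Figure D3:**
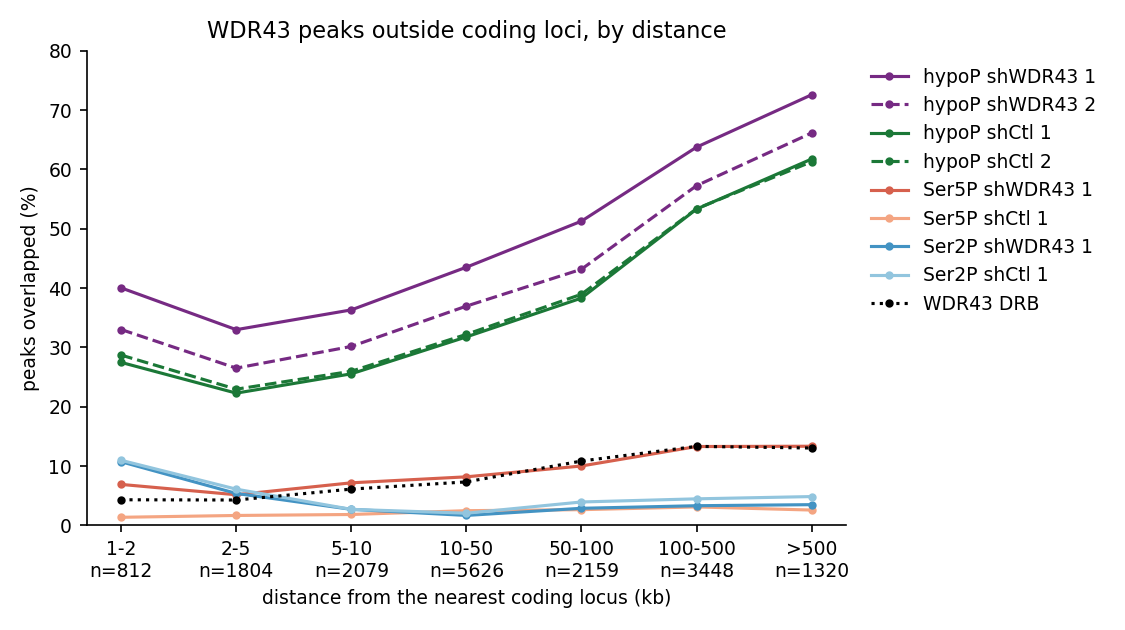
Percent of outside peaks met by each list, by distance in kb from the nearest coding locus, with the number of peaks under each class. The 4 hypoP lines climb to between 61.3% and 72.6% beyond 500 kb, while the Ser2P lines are highest in the nearest class.

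Knockdown of WDR43 went with more outside peaks under hypoP and Ser5P Pol II, and fewer under Ser2P. The rises were not particular to outside peaks, since the shares of end and inside peaks rose under both forms too (given below). HypoP lists met 48.6% and 41.9% of outside peaks in shWDR43 cells, against 37.2% and 37.6% in shCtl cells, and the groups do not overlap. The means were 45.3 ± 4.74% in shWDR43 cells and 37.4 ± 0.266% in shCtl cells (SD, n = 2 each), a difference of 7.84 points that was 4.496 points without the first shWDR43 list and 11.2 points without the second. Ser5P lists met 9.32% and 10.4% in shWDR43 cells, against 2.41% and 3.11% in shCtl cells, which do not overlap either. The means were 9.87 ± 0.771% in shWDR43 cells and 2.76 ± 0.496% in shCtl cells (SD, n = 2 each), a ratio of 3.57. Ser2P lists met 3.22% and 3.19% in shWDR43 cells, against 3.90% and 4.43% in shCtl cells, with means of 3.21 ± 0.0205% in shWDR43 cells and 4.17 ± 0.373% in shCtl cells (SD, n = 2 each) and a ratio of 0.770. With 2 lists against 2 the exact two-sided permutation p was 0.333 for each antibody, the smallest possible, so the design cannot reach 0.05.

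List sizes moved the same way, and their part in these shares was not tested. The hypoP lists held 31269 and 24319 peaks in shWDR43 cells, against 19420 and 19435 in shCtl cells. The Ser5P lists held 6470 and 7534 peaks in shWDR43 cells, against 1848 and 2488 in shCtl cells, a ratio of means of 3.23, and 4.48 for their peaks outside coding loci. The Ser2P lists held 3467 and 3467 peaks in shWDR43 cells, against 3835 and 4271 in shCtl cells, a ratio of 0.855. HypoP lists met 83.4% and 78.8% of end peaks in shWDR43 cells, against 74.2% and 74.6% in shCtl cells. They met 35.4% and 29.3% of inside peaks in shWDR43 cells, against 24.8% and 25.1% in shCtl cells. End peaks under Ser5P changed by a ratio of 2.79 (24.7% and 29.3% in shWDR43 cells, against 8.19% and 11.2% in shCtl cells). For inside peaks under Ser5P the ratio was 3.16 (5.82% and 6.76% in shWDR43 cells, against 1.61% and 2.37% in shCtl cells). Under Ser2P the end peaks overlapped between groups, with 9.15% and 9.28% in shWDR43 cells, against 8.59% and 9.45% in shCtl cells. Inside peaks did so too, with 3.54% and 3.38% in shWDR43 cells, against 3.29% and 3.68% in shCtl cells. The difference between outside and end peaks changed on knockdown by 1.12 points for hypoP, -10.2 points for Ser5P and -1.15 points for Ser2P (exact permutation p = 0.333 each, the smallest possible), and the hypoP value was 0.0812 without the first shWDR43 list.

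Counting single peaks over these same lists gave the same order, which is not a separate measurement. List lengths moved in the same directions, their part in these counts was not tested, and such counts for end and inside peaks are not given here. Both shWDR43 Ser5P lists and no shCtl Ser5P list met 588 outside peaks, the reverse held for 20, and all 4 lists met 160. For hypoP these numbers were 661, 43 and 5803, and for Ser2P 38, 111 and 295. The 588 that gained Ser5P had a median score above that of all outside peaks but below that of the 160. Their median score was 154, against 81.0 for all outside peaks, 386 for the 160 and 182 for the 20. Their median distance from a coding locus was 72.8 kb, against 30.0 kb for all outside peaks and 35.9 kb for the 160. HypoP in both shCtl lists covered 75.5% of the 588, 87.5% of the 160, 55% of the 20 and 34.8% of all outside peaks. The 661 that gained hypoP had a median score of 73.4 and a median distance of 26.4 kb. The strongest of those that gained Ser5P (chr8:88224003-88225140, score 1231.67) lay 9.09 kb from Neto2. Another (chr13:29162440-29164787, score 1100.46) lay 117 kb from Sox4, which encodes a SOX family transcription factor. The 111 that lost Ser2P had a median distance of 74.1 kb, and 73.0% of them lay under hypoP in both shCtl lists.

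Pluripotency genes had more outside peaks around them than the typical coding locus. Within 120 kb, the 26 listed pluripotency loci had a median of 6 outside peaks (quartiles 4 and 9), the 20 listed lineage loci 3 (quartiles 2 and 4), and all coding loci 2 (quartiles 1 and 4). Coding loci with at least 1 FPKM on average also had a median of 2. At least 1 outside peak was found near 25 of 26 pluripotency loci, 20 of 20 lineage loci and 79.5% of all coding loci. Nr0b1 was the pluripotency locus without one. Nanog, a homeobox factor of the pluripotent state, had 16, of which 8 met a DMSO peak and 6 met both shCtl hypoP lists. Its strongest (chr6:122751387-122751925, score 178.41) lay 87.6 kb past the locus end and met all 4 hypoP lists, but not the DMSO list. Pou5f1, which encodes Oct4, had 14, of which 5 met a DMSO peak. Its strongest (chr17:35640726-35641200, score 178.41) lay 1.78 kb before the locus start and met 1 shWDR43 and 1 shCtl hypoP list.

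Sox2, the partner of Oct4, had 11 outside peaks within 120 kb. Its strongest (chr3:34658814-34659175, score 159.28) lay 107 kb past the locus end and met the DMSO list and no Pol II list. Klf2, a factor of the naive state, had 10, and its strongest (chr8:74857737-74858428, score 154.6), 12.2 kb past the locus end, met all 4 hypoP lists. Tbx3 had 13, led by a peak 9.71 kb before the locus (chr5:120110585-120110971, score 236.25). Lefty2, a Nodal antagonist, had 11, led by a peak 18.6 kb before the locus (chr1:182804172-182804635, score 228.06) that is also the strongest near Lefty1. Ser5P was gained at 8 of the 178 outside peaks counted near the pluripotency loci, 3 of them near Nanog and 2 near Otx2, and at 1 of 71 near the lineage loci. These are 4.49% and 1.41%, against 3.41% of all outside peaks. Among lineage genes, which set up germ layers and are nearly silent in these cells, Sox1 stood apart with 15 outside peaks. A peak within 120 kb of 2 loci was counted for each of them, and no link between peak and gene was tested.

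**Figure D4:**
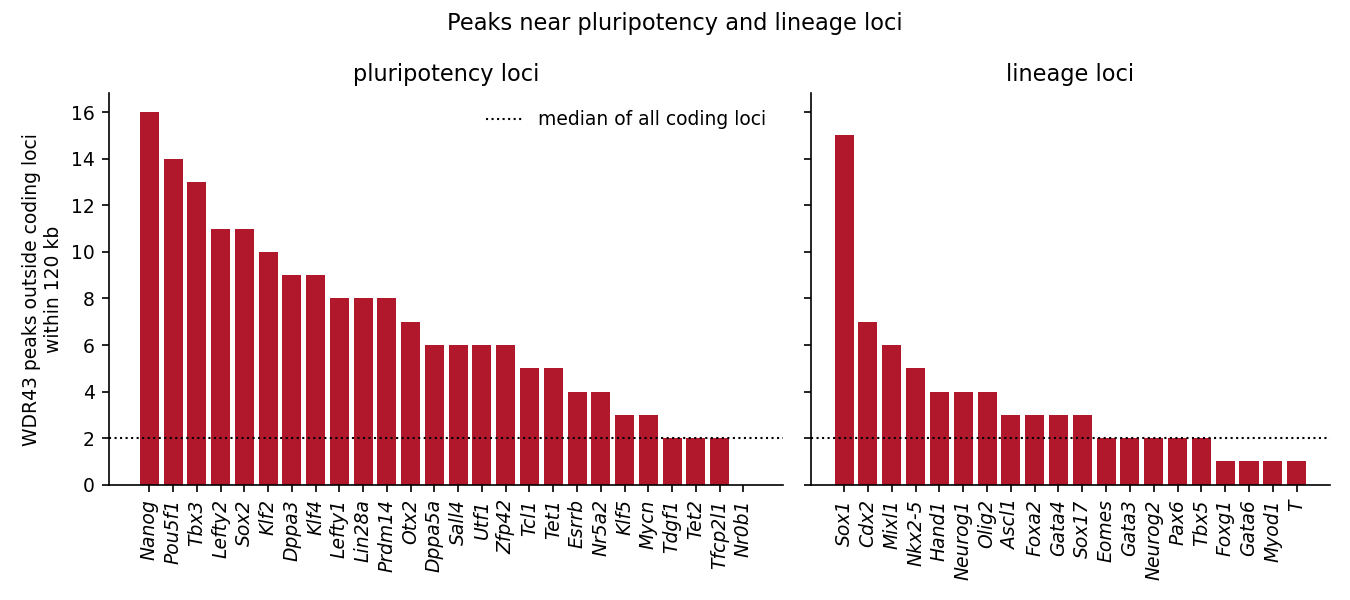
Number of outside peaks within 120 kb of each listed pluripotency locus and each listed lineage locus, with the median of all coding loci, 2, as a dotted line. Nanog leads the pluripotency loci with 16 peaks and Sox1 the lineage loci with 15.

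RNA of most pluripotency genes was lower after knockdown, as was RNA over all genes. Of the 12452 tested genes, limma called 42.7% lower and 6.1% higher in shWDR43 cells (adjusted p under 0.05), and the median of all log2 fold changes was -0.39. Of the 26 pluripotency genes 22 were lower and none higher, with a median of -0.85. Pou5f1 had 554 and 459 FPKM in shWDR43 cells, against 1038 and 1057 FPKM in shCtl cells. Its log2 fold change was -1.05 (SE 0.12, limma, adjusted p = 0.00147). Lefty2 had 3.2 and 3 FPKM in shWDR43 cells, against 35.9 and 40.7 FPKM in shCtl cells (-3.26, adjusted p = 0.000717, limma). Nanog, with the most outside peaks, had 126 and 115 FPKM in shWDR43 cells, against 163 and 142 FPKM in shCtl cells, and did not pass (-0.33, adjusted p = 0.0652, limma). Tbx3 (-0.21), Tfcp2l1 (-0.32) and Dppa3 (-0.79) did not pass either. Of 5 lineage genes with enough RNA to be tested, Sox1 was lower (-0.77) and Gata6 higher (0.69).

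Coding loci nearest to an outside peak, within 50 kb, had counts close to those of all coding loci. There were 5993 such loci and 3456 were tested. Limma called 1577 of them lower (45.6%) and 235 higher (6.80%), and their log2 fold changes had a median of -0.40, against a background of 44% lower, 6.29% higher and a median of -0.39 among the 10657 tested coding loci. For the coding loci nearest to an outside peak that gained Ser5P, 61 of 129 tested were lower and 4 higher. Those nearest to one that lost Ser2P were lower in 19 of 31 (61.3%) and higher in 2. This share was also found for those nearest to a peak in all 4 Ser2P lists, lower in 79 of 124 (63.7%) and higher in 5. Those nearest to one that gained Ser2P were lower in 11 of 21 and higher in 2.

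A minority of outside peaks lay at noncoding loci, and how much sequence these loci cover was not worked out. Of the 17248, 3657 (21.2%, exact 95% interval 20.6 to 21.8) overlapped a noncoding locus or lay within 1 kb of one. An end of a noncoding locus was near for 10.5%, and 10.7% lay inside a noncoding locus away from its ends. No locus of any kind lay within 1 kb of 78.6%, and none within 50 kb of 20.4%. Peaks at an end of a noncoding locus met the cFB-KI list in 43.1% of cases and hypoP list 1 of shCtl in 43.4%, while those inside noncoding loci met them in 26.03% and 35.1%. RefSeq lists a few of the table's noncoding loci as protein-coding, and 153 outside peaks (0.887%) lay at these.

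Noncoding loci with RNA carried outside peaks more often than silent ones. Away from coding loci, 14.0% of the 8691 noncoding loci at 0 FPKM in shCtl cells had an outside peak (exact 95% interval 13.3 to 14.7). The share was 31.1% of 1615 loci above 0 and up to 1 FPKM, 37.8% of 492 between 1 and 5 FPKM, and 51.9% of 343 at 5 FPKM or more (46.5 to 57.3). Loci that RefSeq names as noncoding followed the same order, with 18.2%, 42.2%, 46.8% and 64.3%. Median locus lengths were between 4.53 and 5.09 kb in the 4 classes of all loci. For 409 loci with an outside peak the strand was known, and the 5′ end alone had one in 191, the 3′ end alone in 43, both ends in 23 and neither end in 152.

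RNA of noncoding loci with an outside peak was called at shares near those of all noncoding loci. Of 2691 loci with a peak, 475 had a mean of at least 1 FPKM and were tested. Limma called 189 lower (39.8%) and 23 higher (4.84%), and their median change was -0.47, against a background of 34.9% lower, 4.99% higher and a median of -0.42 among all 1723 tested noncoding loci. Tested noncoding loci without an outside peak were lower in 412 of 1248 and higher in 63. Among loci with a peak, those that RefSeq lists as protein-coding were lower in 37 of 65 (56.9%), and the rest in 152 of 410 (37.1%). With no filter on low FPKM, 20 were called lower and 22 higher. Where libraries were centred on their medians, which moved every log2 fold change up by 0.33, 90 of the 475 were lower and 53 higher. With any 1 of the 4 libraries left out no locus passed the adjusted threshold, and 155 to 199 of the 475 then had an unadjusted p under 0.05 in limma.

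Of 11 listed snoRNA host genes, 9 had an outside peak, and of these 9 limma called 6 lower and none higher, at a median change of -0.84. Over all 11 it called 7 lower and none higher, at the same median of -0.84. Among all tested genes 42.7% were lower at a median of -0.39, and among tested noncoding loci 34.9% at a median of -0.42. Snhg5 had 36.5 and 37.8 FPKM in shWDR43 cells, against 79.3 and 67.5 FPKM in shCtl cells. Its log2 fold change was -0.96 (SE 0.13, limma, adjusted p = 0.00226). Its outside peak (score 451) met all 4 hypoP lists and both shWDR43 Ser5P lists, and neither shCtl Ser5P list. Snhg3 had 14.5 and 14.2 FPKM in shWDR43 cells, against 26.8 and 40.1 FPKM in shCtl cells (-1.14, adjusted p = 0.00423, limma), and its peak met all hypoP and Ser5P lists. Snhg4 (-1.15), Snhg6 (-0.59), Snhg12 (-0.62) and Dancr (-0.94) were lower too. With centred libraries only Snhg3, Snhg4 and Snhg5 stayed past the threshold.

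Snhg1, Snhg7 and Snhg8 did not pass. Snhg1 had 139.5 and 109.5 FPKM in shWDR43 cells, against 130.7 and 136.1 FPKM in shCtl cells, and the groups overlap (-0.11, or 0.22 with centred libraries). Snhg7 had 9.7 and 10.5 FPKM in shWDR43 cells, against 13 and 9.1 FPKM in shCtl cells (-0.10, or 0.23 with centred libraries). Snhg8 had 4.1 and 6.2 FPKM in shWDR43 cells, against 6.1 and 15.6 FPKM in shCtl cells (-0.84, SE 0.38). Snhg1, Snhg5, Snhg6 and Snhg12 had peaks met by all 4 hypoP lists and both shWDR43 Ser5P lists but no shCtl Ser5P list, and Snhg7 shared this pattern. Snhg8 and Dancr had peaks met by both shWDR43 and only the second shCtl Ser5P list.

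Of 22 listed ES cell long noncoding RNAs, 9 had an outside peak and 6 of these were tested. Mir17hg, the host of the miR-17-92 cluster of growth-promoting microRNAs, carried the strongest (chr14:115439397-115441793, score 1450.77), which met 10 Pol II lists. It had 8.3 and 7 FPKM in shWDR43 cells, against 22.2 and 24.7 FPKM in shCtl cells (log2 fold change -1.50, SE 0.15, limma, adjusted p = 0.00109). Malat1 had 55.3 and 68.3 FPKM in shWDR43 cells, against 128.1 and 87.9 FPKM in shCtl cells (-0.78, adjusted p = 0.0177, limma), and this call was lost with centred libraries (-0.45, adjusted p = 0.12). Its strongest outside peak (score 422) met the DMSO and cFB-KI lists but no Pol II list. Meg3, an imprinted RNA, was lower (-1.06), as was Tsix (-1.14), the antisense partner of the X inactivation gene Xist. Reads of Tsix cannot be told from those of Xist, since counting is not stated to use strand.

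Neat1, the RNA scaffold of paraspeckles, was higher. It had 10.5 and 10.3 FPKM in shWDR43 cells, against 6.2 and 8.2 FPKM in shCtl cells (0.49, SE 0.16, limma, adjusted p = 0.0419, or 0.055 without a trend in the variance). Its outside peak (score 405) met the DMSO list and no Pol II list, and is shared with the overlapping locus AK215842 (1.013), so their reads cannot be told apart. Pvt1 had 5 and 4.5 FPKM in shWDR43 cells, against 4.6 and 3.8 FPKM in shCtl cells, and did not pass (0.15), though it did with centred libraries (0.48, adjusted p = 0.0413). Dleu2, Miat and Hotair had an outside peak and too little RNA to test. Of the 3 microRNA hosts with an outside peak, Mir17hg was lower, Mir22hg did not pass (0.39) and Mir143hg was not tested. Of structural RNA genes, Terc, Rnu1b2, Vaultrc5 and Rn45s had one. The peak at Terc, the telomerase RNA, had a score of 356 and met all 4 Ser5P lists, neither shWDR43 hypoP list and both shCtl hypoP lists, and Terc RNA was 6 and 2 FPKM in shWDR43 cells, against 5.6 and 1.9 FPKM in shCtl cells (0.07).

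**Figure D5:**
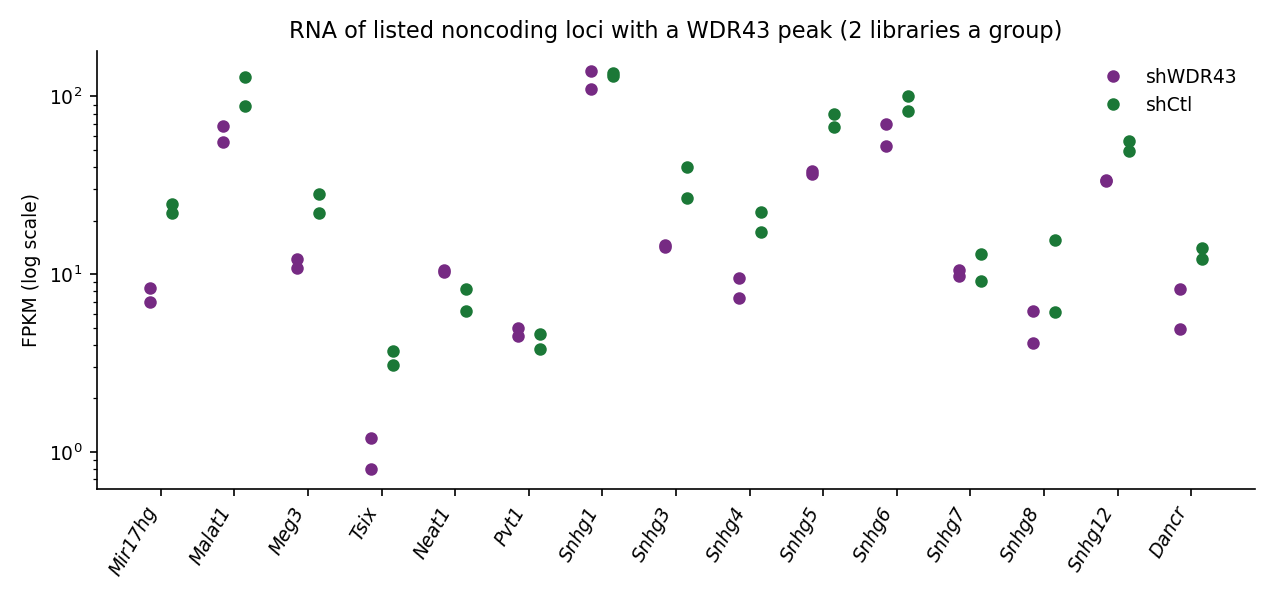
RNA in FPKM on a log axis of the listed long noncoding RNA and snoRNA host loci with an outside peak and enough RNA to be tested, each point 1 library, shWDR43 left in purple and shCtl right in green. Points of the groups do not overlap for Mir17hg, Malat1, Meg3, Tsix, Neat1 and 6 of the 9 host genes.

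The most abundant RNAs at outside peaks came from loci without a gene name. XLOC_014354 (chr3:5860338-6049710) had 170141 and 178209 FPKM in shWDR43 cells, against 244073 and 246737 FPKM in shCtl cells, which was 24.8% and 26.2% of all FPKM in shWDR43 cells, against 24.0% and 23.7% in shCtl cells. It was lower (-0.49, SE 0.05, limma, adjusted p = 0.00121), but not with centred libraries (-0.17, adjusted p = 0.299). Its outside peak (chr3:5860242-5860960, score 2048.1) met all 16 other lists. XLOC_008036 had 23797 and 24357 FPKM in shWDR43 cells, against 32330 and 38263 FPKM in shCtl cells (-0.55, adjusted p = 0.00371, limma; -0.22 centred, adjusted p = 0.22). XLOC_019037 on chromosome 6, whose peak (score 2839.87) also met all 16 lists, had 19961.5 and 18867.5 FPKM in shWDR43 cells, against 19531 and 20331.5 FPKM in shCtl cells (-0.04, adjusted p = 0.672, limma), and with centred libraries the direction turned (0.29, adjusted p = 0.0483). XLOC_018456 was lower (-0.78). Fth1, the ferritin heavy chain gene that the table types as noncoding and RefSeq as protein-coding, did not pass (-0.18).

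The 10 largest rises among noncoding loci with an outside peak were mostly of low-level transcripts. XLOC_017348 led with 9.5 and 7.1 FPKM in shWDR43 cells, against 0 and 2.2 FPKM in shCtl cells (2.37, SE 0.49, limma, adjusted p = 0.00787). XLOC_003434 had 12 and 13.1 FPKM in shWDR43 cells, against 2.8 and 4 FPKM in shCtl cells (1.64, adjusted p = 0.00128, limma). XLOC_023869 had 1.7 and 7.8 FPKM in shWDR43 cells and was listed at 0 in both shCtl libraries. Btbd19 (1.13), which RefSeq lists as protein-coding, XLOC_010526 (1.39), XLOC_003981 (1.23), AK078239 (1.06), AK215842 (1.013) and E330020D12Rik (0.98) were higher too. Gm13067, with 3.3 and 5.2 FPKM in shWDR43 cells, against 0 and 1.9 FPKM in shCtl cells, completed the 10. With the pseudocount at 0.1 its call was lost (adjusted p = 0.0645, limma).

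The 10 largest falls were all of loci that RefSeq did not name. XLOC_015739 had 101.1 and 91.2 FPKM in shWDR43 cells, against 695.7 and 516.6 FPKM in shCtl cells (-2.63, SE 0.16, limma, adjusted p = 0.000717). XLOC_019237 had 3.4 and 4.7 FPKM in shWDR43 cells, against 21.2 and 25.6 FPKM in shCtl cells (-2.28, adjusted p = 0.000992, limma). XLOC_012574 (chr2:98506713-98507465), whose peak met all 12 Pol II lists, had 28.6 and 24.9 FPKM in shWDR43 cells, against 108.8 and 59.8 FPKM in shCtl cells (-1.56, adjusted p = 0.00395, limma). XLOC_023682, XLOC_021839 and RP24-286J21.4 were listed at 0 in both shWDR43 libraries. XLOC_002316 (-1.87) and XLOC_005944 (-1.58) were lower, and the calls of XLOC_006494 (-2.40) and XLOC_007218 (-2.05) were lost with centred libraries.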

How the data were processed

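WDR43 and Pol II occupancy (17 ChIP libraries) and RNA (4 libraries) of mouse ES cells were analysed, grouped by their titles and characteristics. The authors deposited 1 peak list per ChIP library with a score per peak; the sources used here do not give the peak caller's settings or ChIP depth, and list lengths may depend on depth. Reads were aligned with Bowtie2 to mm9, per the submitters' processing notes, which also name TopHat, Cufflinks and Novoalign. The authors deposited an RNA table whose values are taken as FPKM because Cufflinks is named; its title names spike-in RNA, its scaling steps are not given, and read depth is unknown. Its summed FPKM was 687051 and 681178 in shWDR43 libraries, against higher sums in both shCtl libraries. Per the labels' protocols mRNA was isolated with Dynabeads, and per the file headers the 2 RNA libraries of a group are biological replicates.

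From these files, peaks were placed by their distance to the table's loci (printed 1-based), and lists were compared by overlaps of at least 1 bp. Shares carry exact Clopper-Pearson intervals at 95%, and classes of peaks were compared by exact sign-flip permutation over lists, adjusted over 4 tests. Knockdown RNA was tested by limma (version 3.58.1, under R 4.3.3), its prior variance following intensity, for 12452 genes that averaged 1 FPKM or more, after log2(FPKM + 1). P-values were Benjamini-Hochberg adjusted over these genes and called under 0.05, and the fit was tested on simulated data. Alternatives changed the distance limit, score and overlap limits, pseudocount, filter, centring, variance trend, replicate block and each library left out. Fold changes on this scale understate changes of low genes. RefSeq tables on GRCm38 gave gene types, strand, gene order and promoters, and none of their coordinates were used.

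The members, gene lists and tests were chosen with earlier results of these data known. Named peaks were the 5 with the highest score, the 3 highest at noncoding loci, the 3 highest over 50 kb from every locus, the 3 widest, and the strongest near the 6 pluripotency loci with most peaks. Named noncoding loci were the 10 largest rises and 10 largest falls with groups that do not overlap, the 5 with the highest FPKM and the listed loci with a peak. The 4 dense stretches, the 18 peaks in all lists and the peaks that gained Ser5P were chosen after their values were seen.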

Additional observations from a re-analysis of the deposited data

Results flagged for a closer look

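The change of outside peaks on WDR43 knockdown differed in direction between Pol II forms. The share of outside peaks met by Ser5P lists was 7.11 points higher in shWDR43 than in shCtl cells, and the share met by Ser2P lists was lower (difference -0.957 points). The gap between these changes was 8.06 points, and none of the 36 ways to assign the hairpin labels within each antibody gave a larger one in size (exact permutation p = 0.0556, the smallest that this design allows). The hypoP share was 7.84 points higher, a gap to Ser2P of 8.80 points with the same exact permutation p of 0.0556. Neither gap can pass 0.05 with 2 lists a group. The list sizes moved in the same directions, with 1.43 times as many hypoP peaks, 3.23 times as many Ser5P peaks and 0.855 times as many Ser2P peaks in shWDR43 cells, and their part in the gaps was not tested.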

How the results depend on the processing

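Peaks were chosen at 1 kb, and 19371, 14632 and 12553 peaks were outside coding loci at no distance, 5 kb and 10 kb, against 6528 with an FB score of at least 100. With loci that RefSeq lists as protein-coding counted as coding there were 17095, and without the 4 dense stretches 17072 (both chosen after seeing the data). The share at noncoding loci was 18.4% by overlap only, 28.0% at 5 kb, 10.3% without XLOC loci and, as an addition after seeing the data, 20.5% without loci listed as protein-coding. Of the settings tried for the share differences, outside minus inside over Pol II lists fell short of 0.05 in the upper tercile of FB score (4.06 points, exact permutation p = 0.0601) and the widest tercile of FB peaks (3.14 points, p = 0.0674). The hypoP change of outside minus end peaks turned to -0.536 with other-list scores of at least 100, and the cause was not tested.

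Leaving out 1 list at a time gave -19.2 to -16.2 points for outside minus end and 4.29 to 5.52 for outside minus inside over Pol II lists. Leaving out 1 replicate gave knockdown changes of 4.496 to 11.2 points for hypoP, 6.56 to 7.65 for Ser5P and -1.22 to -0.693 for Ser2P. Same-numbered RNA libraries did not deviate together (correlation 0.05), so no pairing by number was seen. With 2 libraries a group, this cannot settle whether the numbers pair them. With the number as a replicate block the share changes stayed at 7.84, 7.11 and -0.957 points (exact permutation p = 0.5 each, the smallest 2 pairs allow), limma called 214 noncoding loci with a peak lower and 30 higher, and 1732 nearest coding loci lower and 256 higher.

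Centred libraries gave 90 lower and 53 higher noncoding loci and 816 lower and 493 higher coding loci, and XLOC_019037 turned to 0.29 (limma, adjusted p = 0.0483). With no filter on low FPKM, limma called 20 noncoding and 193 coding loci lower and 22 noncoding and 59 coding loci higher, when all 38582 genes were tested. Leaving out any 1 library gave 0 calls in each set, with an unadjusted p under 0.05 in 155 to 199 of 475 noncoding and 1366 to 1631 of 3456 coding loci.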

Other observations

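The 18 outside peaks found in all 16 other lists, ActD included, had a median score of 852 and a median width of 506 bp, against 81.0 and 291 bp for all outside peaks. Of these, 3 lay side by side 34.5 to 36.4 kb from Zfp825, a zinc finger gene on chromosome 13 (chr13:74665890-74668134, scores 662, 302 and 370). Another (chr17:13743410-13746077, score 1827.88) lay at the noncoding locus 2700054A10Rik, and the interval between Tcp10c and Tcte2 that holds it carries a U small nuclear RNA gene in RefSeq. Inside coding loci 11 peaks, and at ends of coding loci 2 peaks, met all 16 lists. The input library was not analysed here.

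The U small nuclear RNA gene between Arl4d and Rdm1 on chromosome 11 sat in a 34.7 kb interval with 3 outside peaks (top score 534). All 3 met the DMSO, cFB-KI and all 8 hypoP and Ser5P lists, 2 met DRB and none met a Ser2P or ActD list. At Rnu1b2, a U1 small nuclear RNA gene, the outside peak (score 174) met the same 8 Pol II lists and no Ser2P list.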
